A study of Bos taurus with 6 samples.

Results

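Chromatin recovered with an antibody against MAT2A was compared with unselected chromatin of the same bovine blastocysts. The comparison took in 4 of the 6 ChIP-seq libraries of the series. They were the MAT2A-ChIP lists of replicates 1 and 2 and the Input lists of replicates 1 and 2, each MAT2A-ChIP list being set against the Input list of its own replicate number. Only peaks on the 29 autosomes were used, which left 6319 peaks in the 4 lists, of 11572 peaks on all chromosomes in the 6 lists. The blastocysts were produced by in vitro fertilization, were cultured to day 8 in medium to which fetal calf serum had been added, and carried no genetic modification named in the labels. Replicate 1 was a pool of 669 blastocysts and replicate 2 a pool of 677, so that each group had n = 2 pools of whole embryos, in which the inner cell mass and the trophectoderm were not separated. Each pool was sheared and then split. A small portion received no antibody and gave the Input library, a larger portion received a mouse monoclonal antibody against MAT2A and gave the MAT2A-ChIP library, and an equal portion received a mouse IgG2B isotype antibody and gave the IgG control library, which is shown here only for reference.

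The methyl groups placed on DNA and histones come from S-adenosylmethionine, which cells make from methionine and ATP. In most tissues the methionine adenosyltransferase that does this has MAT2A as its catalytic subunit. Part of the enzyme is found in the nucleus, where it can act within chromatin complexes. In ChIP-seq, a peak is a stretch of genome that gathers more reads than its surroundings. A peak caller run on Input chromatin also finds peaks, for instance where copies of a repeat are collapsed in the assembly or where chromatin shears or sequences easily, and a peak of the MAT2A-ChIP list is therefore read against the Input list of the same pool. A peak of MAT2A-ChIP that overlapped no Input peak of its replicate is called gained here, a peak of Input that overlapped no MAT2A-ChIP peak is called lost, and an overlap of at least 1 bp made a peak shared. These words describe lists. A place with no peak can hold reads that stayed under the calling threshold, and how many reads support a peak is unknown because the lists give none. No DNA sequence of the regions was examined.

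The MAT2A-ChIP lists held 1759 and 1506 autosomal peaks in replicates 1 and 2, and the Input lists held 1601 and 1453. MAT2A-ChIP had more peaks than Input in both replicates, with a mean difference of 105.5 ± 74.2 peaks (SD, n = 2), which was smaller than the difference between the MAT2A-ChIP replicates (exact two-sided sign-flip permutation test, p = 0.5). With the X chromosome included, the difference fell to 2.5 peaks and had opposite signs in the 2 replicates. It rose to 229.5 with peaks within 1 kb joined and to 235 without the 12 densest loci described further on. A design of 2 pairs cannot give a p under 0.5 by sign flips, nor under 0.333 when the 4 libraries are permuted freely, so the values of the 2 replicates and their spread carry each comparison below. In the IgG control lists there were 1645 and 1550 autosomal peaks.

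The median peak of MAT2A-ChIP was narrower than that of Input. The median width was 270 bp in replicate 1 and 281 bp in replicate 2, against 302 bp and 294 bp in Input, so that the medians of the groups did not overlap. The mean difference was -22.5 ± 13.4 bp (SD, n = 2, exact sign-flip permutation test, p = 0.5). With peaks within 1 kb joined it was -34.5 bp. The upper part of the distribution differed more than the median. The 75th percentile of width was 332 bp and 343 bp in MAT2A-ChIP and 457 bp and 435 bp in Input. Peaks of 1 kb or more made up 2.33% and 2.32% of the MAT2A-ChIP lists and 5.37% and 5.37% of the Input lists. Although there were more MAT2A-ChIP peaks, they covered less of the genome, 572 kb and 499.8 kb against 651 kb and 576 kb. The IgG control lists had median widths of 282 bp and 294 bp, and 2.49% and 2.97% of their peaks were 1 kb or more.

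The difference in width was also seen at places that both kinds of list held. Over the 853 overlapping pairs of replicate 1, the MAT2A-ChIP peak had a median of 0.861 times the width of the Input peak, and 82.4% of the pairs were narrower in MAT2A-ChIP. Over the 797 pairs of replicate 2 the median was 0.927 times, with 65.7% of the pairs narrower (mean of the replicates 0.894 ± 0.0465, SD, n = 2, exact sign-flip permutation test, p = 0.5). Where exactly 1 peak met 1 peak, the median ratio to Input was 0.891 and 0.944. Counted in the same way, the median ratio of replicate 1 to replicate 2 was 0.974 for MAT2A-ChIP and 1.02 for Input, closer to 1 than either ratio to Input, and 59.3% of the MAT2A-ChIP places and 40.6% of the Input places were narrower in replicate 1. Over all overlapping pairs, IgG control had ratios of 0.871 and 0.944 to the same Input lists. Few peaks met several peaks of the other list. Of all Input peaks, 51 of replicate 1 and 33 of replicate 2 overlapped more than 1 MAT2A-ChIP peak, and the reverse was seen for 8 and 17 MAT2A-ChIP peaks.

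**Figure D1:**
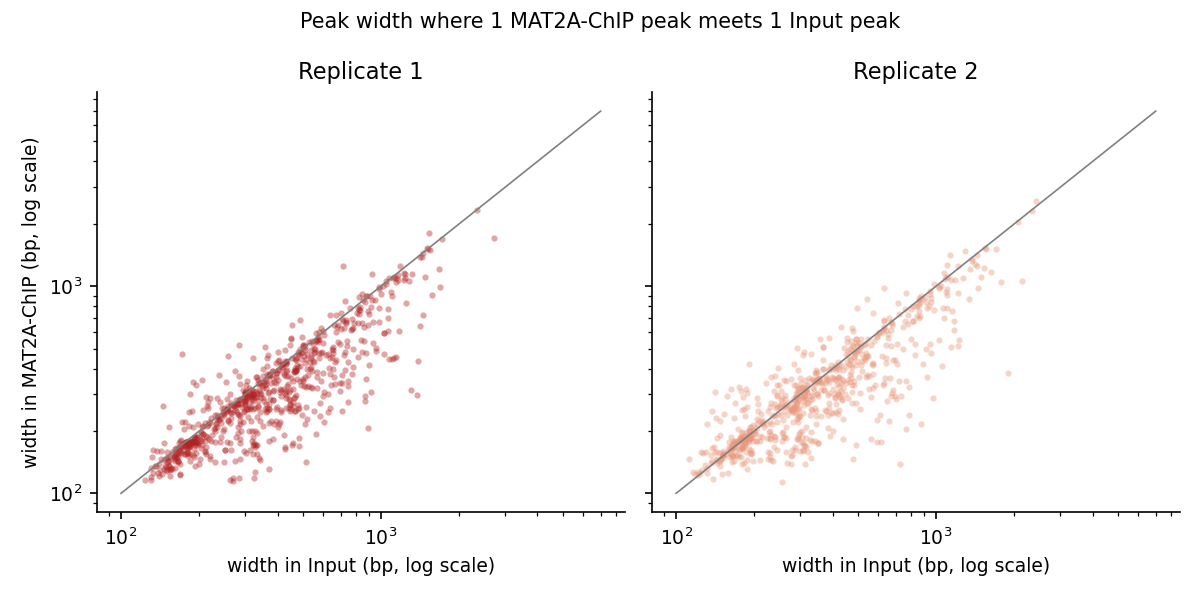
Width of a MAT2A-ChIP peak (y axis, bp, log scale) against the width of the Input peak it overlapped (x axis, bp, log scale), for places where exactly 1 peak met exactly 1 peak, 735 places in replicate 1 and 697 in replicate 2; the grey line marks equal widths. Most points lie under the line, 81.1% in replicate 1 and 64.8% in replicate 2.

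The widest peaks were held in common. All 41 MAT2A-ChIP peaks of 1 kb or more in replicate 1 and all 35 in replicate 2 overlapped an Input peak, and the Input peak was itself 1 kb or more at 38 and 33 of them. Of the 86 and 78 wide Input peaks, 78 and 68 overlapped a MAT2A-ChIP peak, but the MAT2A-ChIP peak reached 1 kb at only 35 and 31 of these, and its median width was 948 bp and 979 bp. More than 1 MAT2A-ChIP peak lay on 27 and 18 of the wide Input peaks. Wide peaks of MAT2A-ChIP were therefore a subset, by place, of the Input list in both pools.

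Over the whole lists, the kinds of list also differed in spacing. Spacing is the gap from the end of a peak to the start of the next peak of the same list on the same chromosome. Its median was 425 kb and 398 kb in MAT2A-ChIP and 11.4 kb and 10.3 kb in Input. The mean difference of 401 ± 18.3 kb (SD, n = 2) was larger than the spread between replicates (exact sign-flip permutation test, p = 0.5). Its size depended on which peaks were counted, being 158 kb with all chromosomes, 668 kb with peaks within 1 kb joined, 728 kb without the 12 densest loci described further on and 2.59 kb with the better-scoring 50% of each list. The same was seen in the share of peaks that had a neighbour within 10 kb, which was 39.6% (95% Wilson interval 37.3 to 41.9%) and 42.4% (40.0 to 44.9%) in MAT2A-ChIP and 63.1% (60.7 to 65.4%) and 64.6% (62.1 to 67.0%) in Input. The difference was -23.5 percentage points in replicate 1 and -22.2 in replicate 2 (exact sign-flip permutation test, p = 0.5). Intervals cover counting error only, and neighbouring peaks are not independent. The IgG control lists had median spacings of 449 kb and 402 kb, and 38.5% and 41.7% of their peaks had such a neighbour.

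**Figure D2:**
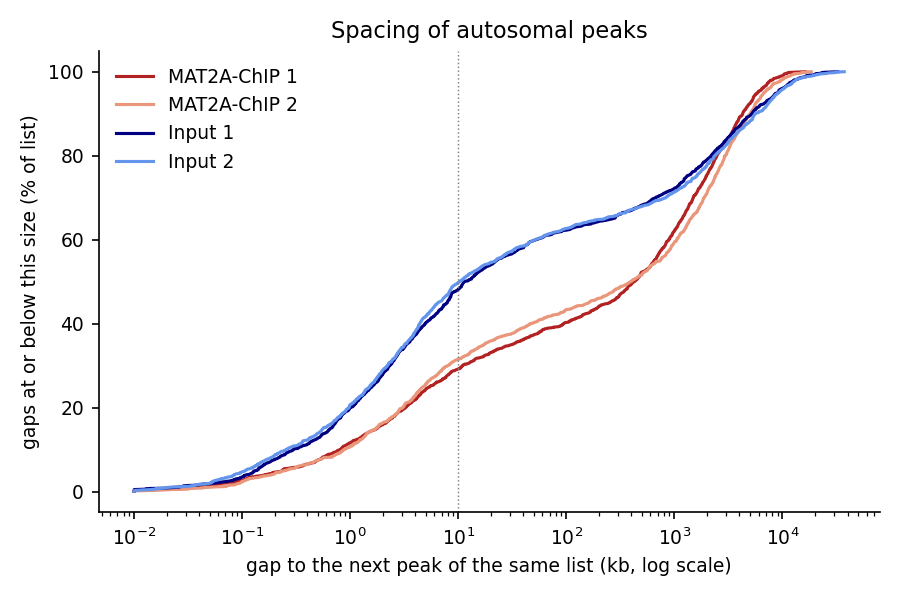
Cumulative share of gaps (y axis, % of the gaps of a list) against gap size (x axis, kb, log scale) for the MAT2A-ChIP and Input lists of both replicates; the dotted line marks 10 kb. The Input curves of both replicates run above the MAT2A-ChIP curves at gaps of 1 kb to 100 kb, with medians of 11.4 kb and 10.3 kb against 425 kb and 398 kb.

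Input peaks lay more often in runs. When peaks with gaps of up to 10 kb were taken as 1 run, 290 MAT2A-ChIP peaks of replicate 1 (16.5%) and 269 of replicate 2 (17.9%) lay in runs of at least 5 peaks, against 484 (30.2%) and 467 (32.1%) in Input. The longest run had 49 and 31 peaks in MAT2A-ChIP and 73 and 67 peaks in Input. By contrast, 1063 and 867 MAT2A-ChIP peaks stood alone, against 591 and 514 Input peaks. In the IgG control lists, 249 (15.1%) and 254 (16.4%) of the peaks lay in such runs, and 1012 and 904 stood alone.

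The difference in neighbours was largest in the lower part of each list by score. Each list was split into 4 quartiles by its own score, since a score depends on the depth of its library and was used only as a rank. In the lowest quartile, 9.79% and 10.6% of MAT2A-ChIP peaks had a neighbour within 10 kb, against 33.5% and 36.1% of Input peaks. In the next quartile the shares were 16.8% and 26.7% against 66.9% and 73.3%, and in the one above 60.7% and 66.5% against 77.9% and 77.5%. In the highest quartile they were 70.9% and 66.0% against 73.8% and 71.6%, a smaller difference of the same direction in both replicates. IgG control had 8.98% and 10.9% in its lowest quartile and 67.2% and 67.5% in its highest, close to MAT2A-ChIP. When only the better-scoring 50% of each list was kept, the share with a neighbour was 62.3% and 61.8% in MAT2A-ChIP and 64.1% and 61.6% in Input. The difference of -0.799 percentage points was then smaller than its spread and had opposite signs in the replicates, while the median spacing, 15.7 kb and 14.9 kb against 11.5 kb and 13.9 kb, stayed larger in MAT2A-ChIP in both. In width, by contrast, the better-scoring 50% differed more than the whole lists, with medians of 295 bp and 293 bp in MAT2A-ChIP and 357 bp and 341.5 bp in Input.

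**Figure D3:**
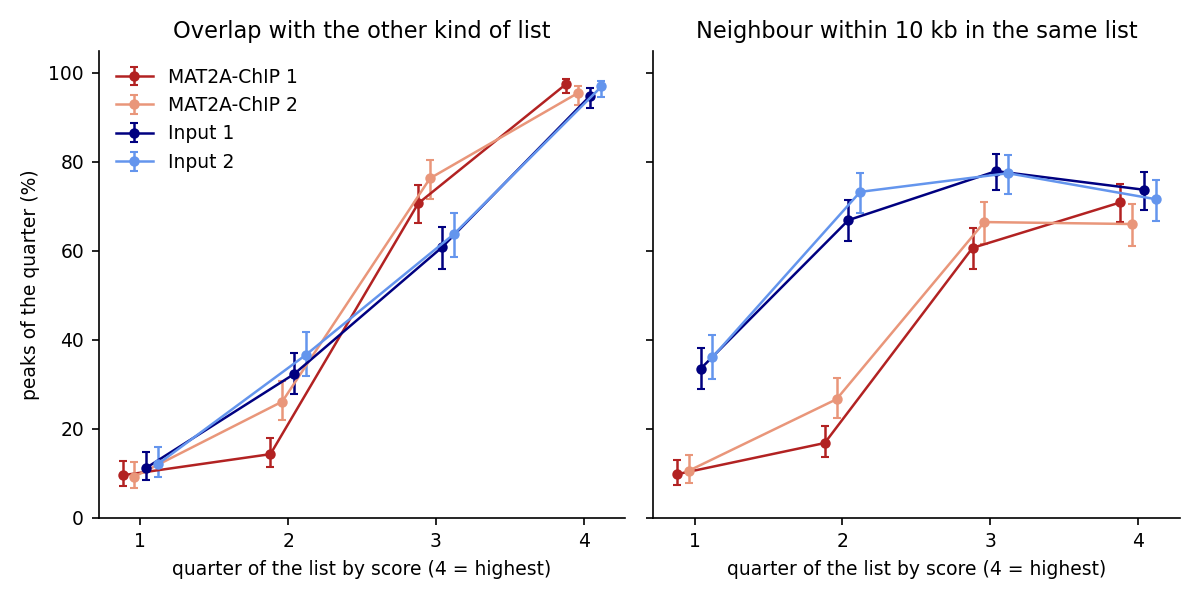
Share of peaks (y axis, %, with 95% Wilson intervals) in each quartile of a list by score (x axis, 4 is the highest), for the MAT2A-ChIP and Input lists of both replicates: left, peaks that overlapped a peak of the other kind in the same replicate; right, peaks with a neighbour within 10 kb in the same list. Overlap rises to over 94% in the highest quartile of every list. The share with a neighbour is lower in MAT2A-ChIP than in Input in every quartile of both replicates, and least so in the highest. Intervals cover counting error over peaks only.

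About as many peaks were shared as were not. In replicate 1, 845 of 1759 MAT2A-ChIP peaks (48.0%, 45.7 to 50.4%) overlapped an Input peak, and 780 of 1506 (51.8%, 49.3 to 54.3%) did in replicate 2. The other 914 (52.0%) and 726 (48.2%) were gained. In the other direction, 799 of 1601 Input peaks (49.9%, 47.5 to 52.4%) and 761 of 1453 (52.4%, 49.8 to 54.9%) overlapped a MAT2A-ChIP peak, which left 802 (50.1%) and 692 (47.6%) lost. IgG control peaks overlapped the same Input lists at 48.5% and 50.6%. The Input replicates had 67.8% of their peaks in common and the MAT2A-ChIP replicates 42.0%, both counted over the 2 lists.

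Whether a peak was shared went with its rank. In the highest quartile by score, 429 of 440 MAT2A-ChIP peaks of replicate 1 (97.5%) and 360 of 377 of replicate 2 (95.5%) overlapped Input, and in the lowest quartile 42 of 439 (9.57%) and 35 of 378 (9.26%) did. Input ran from 94.8% and 97.0% in its highest quartile down to 11.2% and 12.1% in its lowest. IgG control peaks overlapped Input at 96.1% and 96.9% in the highest quartile and at 9.95% and 7.75% in the lowest. Shared MAT2A-ChIP peaks had a median score percentile of 75.4 and 73.0, and gained peaks of 28.7 and 26.5. The corresponding values in Input were 73.2 and 72.8 for shared peaks and 28.7 and 27.3 for lost peaks. Where exactly 1 peak met 1 peak, the ranks of the 2 lists went together, with a Spearman rho of 0.714 over 735 places in replicate 1 and 0.776 over 697 places in replicate 2. This is a description across places of the same genome, and the rho was 0.736 between the MAT2A-ChIP replicates and 0.840 between the Input replicates.

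Gained and lost peaks differed in how they were placed. Only 83 of the 914 gained peaks of replicate 1 (9.08%) and 92 of the 726 of replicate 2 (12.7%) had a neighbour within 10 kb in their own list, against 72.5% and 70.1% of shared MAT2A-ChIP peaks. Of the lost Input peaks, 49.0% and 53.2% had one. Gained peaks also rarely recurred. In the other MAT2A-ChIP list, 42 (4.60%) and 46 (6.34%) of them were found again, while 294 (36.7%) and 326 (47.1%) of the lost Input peaks were found in the other Input list. Shared MAT2A-ChIP peaks recurred at 76.6% and 81.4%. Low rank alone went with rare recurrence: all MAT2A-ChIP peaks of the lowest score quartile recurred at 6.38% and 6.08%, and those of Input at 20.0% and 29.5%. Some peaks gained in one replicate met an Input peak of the other replicate, 42 (4.60%) and 64 (8.82%). Gained peaks that did not recur lay a median of 1237 kb and 1259 kb from the nearest Input peak of their replicate, and those that did recur lay 5.74 kb and 3.04 kb away. IgG control peaks gained over the same Input lists recurred at 4.84% and 6.01%.

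A few loci held a large part of every list. The peaks of the 4 lists were joined where gaps were up to 100 kb, and the 12 loci with the most peaks were taken after their values were seen. They held 512 (32.0%) and 482 (33.2%) of the Input peaks and 385 (21.9%) and 350 (23.2%) of the MAT2A-ChIP peaks. The densest, chr14:347-1118045, had 95 and 75 MAT2A-ChIP peaks against 139 and 120 Input peaks. The locus chr1:145293618-145451650 had 49 and 54 against 73 and 67. The locus chr29:30225152-30384971, where the study's annotation names an intron of KIRREL3, a cell adhesion protein of the nephrin family, had 49 and 50 against 60 and 57. Input had more peaks than MAT2A-ChIP in both replicates at 10 of the 12 loci, and the exceptions were chr17:50575302-50946351 and chr17:51405904-51630708, where replicate 1 had more in MAT2A-ChIP (32 against 31 and 25 against 17). Outside the 12 loci MAT2A-ChIP had 285 and 185 more peaks than Input. Input peaks counted toward the choice of the loci, so the counts there describe those loci and test nothing. Without the 12 loci the difference in the share of peaks with a neighbour was -22.7 percentage points. At the other end, loci of a single peak held 651 (37.0%) and 468 (31.1%) of the MAT2A-ChIP peaks and 205 (12.8%) and 164 (11.3%) of the Input peaks. In the first 1 Mb of the autosomes there were 141 and 119 MAT2A-ChIP peaks against 191 and 177 Input peaks. These counts are not separate from those of the chromosome 14 locus, most of whose length lies in that stretch.

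Across the 29 autosomes, the share of a list that a chromosome held was higher in MAT2A-ChIP in both replicates for 16, lower in both for 6, and of opposite sign for 7. Chromosome 14 had the largest loss. It held 137 (7.79%) and 110 (7.30%) of the MAT2A-ChIP peaks against 180 (11.2%) and 157 (10.8%) of the Input peaks, a difference of -3.45 and -3.50 percentage points. The largest differences between replicates of a kind on any autosome were 1.07 points for Input and 1.45 points for MAT2A-ChIP, and the mean difference exceeded both on chromosome 14 alone. Outside the locus at its start, chromosome 14 had 42 and 35 MAT2A-ChIP peaks and 41 and 37 Input peaks. The next losses were on chromosomes 8 and 17. Chromosome 8 had 99 and 88 against 103 and 109 peaks, differences of -0.805 and -1.66 points (mean -1.23). Chromosome 17 had 110 and 73 against 106 and 95, differences of -0.367 and -1.69 points (mean -1.03). Both means were smaller than the largest difference between MAT2A-ChIP replicates. In replicate 1, chromosome 17 had more MAT2A-ChIP than Input peaks.

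The largest gain in share was on chromosome 12, with 36 and 25 MAT2A-ChIP peaks against 13 and 10 Input peaks (2.77 and 2.5 times), a difference of 1.23 and 0.972 percentage points. Of these MAT2A-ChIP peaks, 34 and 25 stood alone, as did 10 and 10 of the Input peaks. Only 11.1% and 16.0% of the MAT2A-ChIP peaks of chromosome 12 overlapped an Input peak, and none was gained in both replicates. Chromosomes 2 and 11 followed. Chromosome 2 had 67 and 36 against 38 and 27 peaks, differences of 1.44 and 0.532 points (mean 0.984). Its share of the MAT2A-ChIP list differed between replicates, 3.81% and 2.39%. Chromosome 11 had 56 and 51 against 38 and 33, differences of 0.810 and 1.12 points (mean 0.963). IgG control had 38 and 26 peaks on chromosome 12, and 141 and 140 on chromosome 14.

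**Figure D4:**
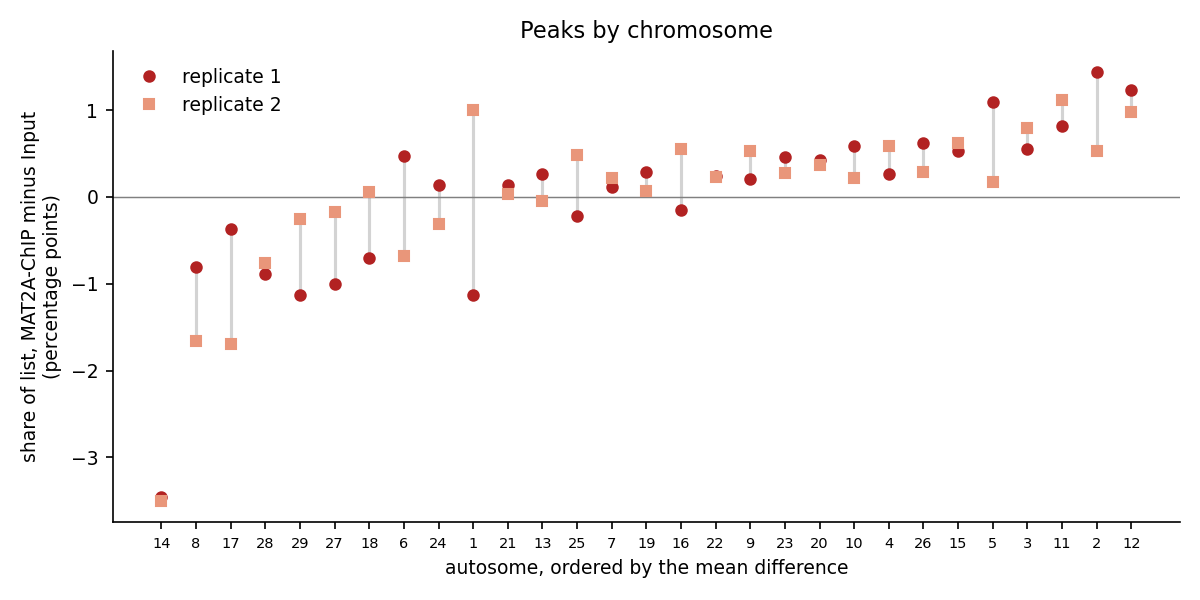
Share of the MAT2A-ChIP list minus share of the Input list (y axis, percentage points) for each autosome (x axis, ordered by the mean difference), with circles for replicate 1 and squares for replicate 2. Chromosome 14 sits at -3.45 and -3.50, apart from the others, and chromosome 12 is at the high end with 1.23 and 0.972.

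Peaks gained in both replicates were few. Of the 1759 MAT2A-ChIP peaks of replicate 1, 689 overlapped a MAT2A-ChIP peak of replicate 2, and 23 of these (3.34%) had no Input peak in either replicate. With IgG control in place of MAT2A-ChIP and the same Input lists, the count was 22 of 695 (3.17%). Of the 689 replicated MAT2A-ChIP peaks, 623 (90.4%) overlapped a peak in both Input lists. The 23 regions lay on 14 autosomes. Their median width was 188 bp and 254 bp and their median score percentile 63.4 and 54.9 in the 2 MAT2A-ChIP lists. An Input 1 peak lay within 10 kb of 13 of them, and the median distance was 5.64 kb. An IgG control peak overlapped 4 regions in both replicates and 7 in 1 replicate, and 12 regions had none. The share without one among all replicated MAT2A-ChIP peaks is not given here, so the 12 are not read as specific to MAT2A-ChIP. When only the better-scoring 50% of each list was used the count was 43, a setting in which the weaker Input peaks no longer count. With all chromosomes it was 39.

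**Figure D5:**
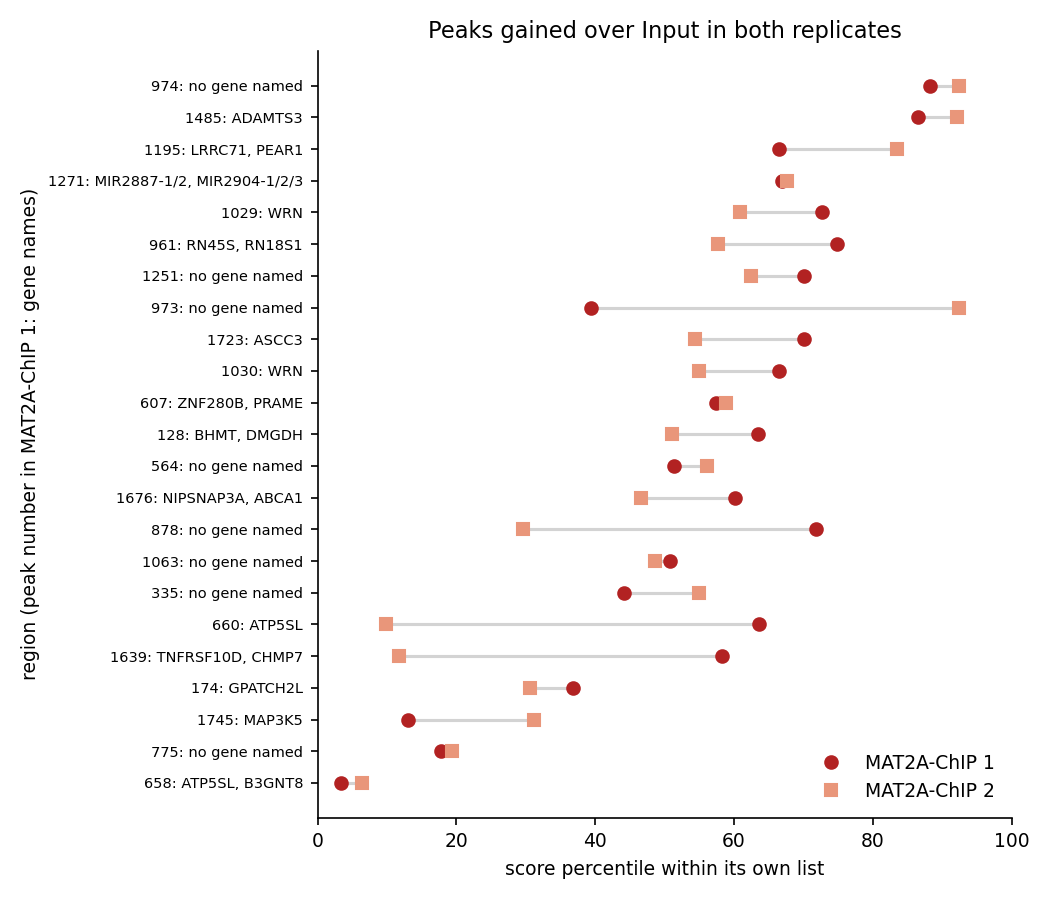
Score percentile within its own list (x axis) of the 23 regions gained over Input in both replicates (y axis, by peak number in MAT2A-ChIP 1, with at most 2 gene names from the annotation of the study), circles for MAT2A-ChIP 1 and squares for MAT2A-ChIP 2. The regions spread over the whole range, from percentiles of 3.41 and 6.34 to 88.3 and 92.4, and 3 of them, of which 2 share a peak of MAT2A-ChIP 2, pass the 90th percentile in a list.

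The highest-ranking gained region was chr26:4831896-4832060, 165 bp, at the 88.3th percentile of MAT2A-ChIP 1 and the 92.4th of MAT2A-ChIP 2. The study's annotation names no gene within its limit there, Input peaks lay 0.412 kb and 0.126 kb away, and IgG control had a peak on it in both replicates. The peak just before it, chr26:4831584-4831831 (39.4 and 92.4), met the same 502 bp peak of MAT2A-ChIP 2, so the 2 regions are not separate observations in replicate 2. Next came chr6:89211024-89211156 (133 bp, 86.5 and 92.1) in an intron of ADAMTS3, a protease that trims procollagen, with an IgG control peak in replicate 1. The region chr3:13937382-13937518 (66.5 and 83.5) lay downstream of LRRC71 and of PEAR1, a receptor of platelets and endothelium. It overlapped no IgG control peak, and the nearest Input peak was 745 kb away in replicate 1 and 18.3 kb away in replicate 2.

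Regions beside microRNA and ribosomal RNA genes and in a DNA repair gene came next. The region chr4:61174850-61175082 (66.9 and 67.6) lay downstream of microRNA genes of the MIR2887 and MIR2904 groups and of AOAH, which deacylates bacterial lipopolysaccharide, and had an IgG control peak in both replicates. An intron of WRN, a RecQ helicase of DNA repair, held chr27:26327917-26328037 (72.7 and 60.9) and chr27:26332156-26332294 (66.5 and 55.0), the first with an IgG control peak in replicate 1 and the second with none. The region chr25:32469534-32469692 (74.8 and 57.7) lay downstream of RN45S and RN18S1, the ribosomal RNA genes, and had an IgG control peak in both replicates. Ribosomal RNA genes and these microRNA groups are present in near-identical copies. Reads that fit several places are left out of the study's tally of mapped reads, and whether peaks were called from the same reads is not given in the sources used here. The region chr4:28973801-28973929 (70.0 and 62.4) had no gene named within the limit and no IgG control peak.

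Of the 23 regions, 15 lay in an intron of or beside genes that the study's annotation names, and 8 had no gene within its limit. That annotation was made on these libraries. Introns held 7 of the regions. Besides ADAMTS3 and WRN they were in ASCC3, a helicase of RNA quality control and DNA repair (chr9:50003001-50003188, 70.0 and 54.4, IgG control peak in replicate 2), in ZNF280B, a zinc finger gene, with PRAME, a member of a multicopy family of germline antigens, nearby (chr17:51421412-51422118, 57.4 and 58.8, IgG control peak in replicate 2), in TNFRSF10D, a decoy receptor for the death ligand TRAIL, with CHMP7 and LOXL2 nearby (chr8:71209182-71209436, 58.3 and 11.7), and in MAP3K5, a stress-activated kinase (chr9:75704790-75705052, 13.0 and 31.2). No IgG control peak overlapped the last pair. The ranks of the TNFRSF10D region differed widely between the MAT2A-ChIP lists.

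Other regions lay beside genes rather than in them. The region chr10:10105977-10106144 (63.4 and 51.0) lay upstream of BHMT, which remakes methionine from homocysteine with betaine, and of DMGDH, which oxidises the dimethylglycine left by that reaction. Input peaks lay 0.981 kb and 1.01 kb away, and IgG control had a peak on it in replicate 1. The region chr8:96227801-96227972 (60.1 and 46.6) lay near ABCA1, the cholesterol efflux transporter, and NIPSNAP3A, with Input peaks 0.366 kb and 0.381 kb away. On chromosome 18, chr18:50944828-50945376 (63.6 and 9.89) and chr18:50891799-50892075 (3.41 and 6.34) had ATP5SL named upstream, and the second also had BCKDHA, a subunit of branched-chain ketoacid dehydrogenase, the glycosyltransferase gene B3GNT8 and the ciliary gene B9D2. The second lay close to the calling threshold in both lists. The region chr10:88542507-88542800 (36.8 and 30.6) lay downstream of GPATCH2L. No IgG control peak overlapped it, the ABCA1 region or the chromosome 18 regions. The 2 regions farthest from Input, picked out after their values were seen, were chr20:30286841-30287103 (17.7 and 19.3) and chr23:26029184-26029607 (71.8 and 29.6), with the nearest Input 1 peak 5366 kb and 3629.9 kb away, the nearest Input 2 peak 7154 kb and 2800.0 kb away and no gene named within the limit. The second had an IgG control peak on it in replicate 1.

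Peaks lost in both replicates were more numerous. Of the 1601 Input peaks of replicate 1, 1027 recurred in Input 2. Of these, 175 (17.0%) had no MAT2A-ChIP 1 peak and met an Input 2 peak that had no MAT2A-ChIP 2 peak. With no replicate block the count was 172. Against IgG control the count was 214 of 1027 (20.8%), with the same Input lists. The 175 regions lay on 27 autosomes, and some of them met the same Input 2 peak. Their median score percentile was 41.3 in Input 1 and 38.5 in Input 2, and none passed the 90th percentile in either list. Their median width was 272 bp and 275 bp, and 6 were 1 kb or more in Input 1. A MAT2A-ChIP 1 peak lay within 10 kb of 115 of them (65.7%), at a median distance of 4.09 kb over all of them. An IgG control peak overlapped 14 in both replicates and 54 in 1 replicate, and 107 (61.1%) had none. The share without one among all replicated Input peaks is likewise not given. With the better-scoring 50% of each list the count fell to 47, with peaks within 1 kb joined it was 115, and without the 12 densest loci it was 118.

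The lost region with the highest rank was chr1:91173638-91173774, a 137 bp peak with the same bounds in both Input lists, at the 83.2th and 71.6th percentiles. The nearest MAT2A-ChIP peak was 33.7 kb away in both replicates, and IgG control had a peak on it in both. The region chr14:950538-950697 (76.0 and 78.1), within the dense locus of chromosome 14, had MAT2A-ChIP peaks 1.21 kb and 29 kb away. The regions chr27:28731335-28731496 (77.0 and 73.3), chr6:6602632-6603001 (75.9 and 71.0), chr5:46556376-46556573 (83.2 and 59.8) and chr17:50576087-50576562 (73.8 and 66.9) followed, with a MAT2A-ChIP 1 peak 9.49, 2.56, 11.9 and 0.462 kb away in that order. The nearest MAT2A-ChIP 2 peak was close to the regions of chromosomes 27 and 6 (9.02 and 2.58 kb) and far from those of chromosomes 5 and 17 (359 and 161 kb). The widest of those named was chr18:57622307-57626072, 3766 bp in Input 1 and 2168 bp in Input 2 (75.0 and 65.5), with MAT2A-ChIP peaks 9.47 kb and 108 kb away. At chr8:44936093-44936383 (75.4 and 65.1) the nearest MAT2A-ChIP peak was 299 kb away in both replicates. An IgG control peak overlapped the regions of chromosomes 6 and 8 in replicate 1 and that of chromosome 14 in replicate 2. Of the 23 gained regions, 9 had a lost region within 100 kb.

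The 623 peaks of MAT2A-ChIP 1 that recurred in the other 3 lists had median widths of 315 bp and 335 bp in MAT2A-ChIP and 432 bp and 394 bp in Input. Both MAT2A-ChIP peaks were narrower than both Input peaks at 284 of them (45.6%), and wider than both at 19 (3.05%). The highest by mean rank were chr1:61603232-61604760 (1529 bp and 1527 bp in MAT2A-ChIP, 1508 bp and 1538 bp in Input), chr24:19270384-19271175 (792 bp and 803 bp against 832 bp and 813 bp), chr17:269494-270569 (1076 bp and 1086 bp against 1231 bp and 1085 bp), chr9:65872576-65874069 (1494 bp and 1512 bp against 1540 bp and 1697 bp) and chr28:1893764-1894924 (1161 bp and 1214 bp against 1230 bp and 1356 bp). All 5 were at the 99.6th percentile or above in each of the 4 lists.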

How the data were processed

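Chromatin of 2 pools of blastocysts was sequenced by the authors as Input, MAT2A-ChIP and IgG control. Reads were aligned to bosTau8 without scaffolds (Bowtie 1.1.2) and peaks were called in each library with MACS. The deposited lists give positions and a score, which the authors' peak caller derives from the p-value of a peak and which starts at 50. From these, peaks of the same replicate were compared by overlap of at least 1 bp, and scores were turned into percentiles within a list. Replicate numbers pair the libraries because the methods divide the chromatin of 1 pool among them. As a check, lists with the same number shared 48.9% and 52.1% of peaks (mean 50.5%). Lists with different numbers shared 50.3% and 49.8% (mean 50.1%), so overlap alone did not tell the pairs apart. Differences were tested by exact permutation over libraries, never over peaks. Regions named are the 8 gained and 8 lost in both replicates and the 5 shared by all 4 lists with the highest mean percentile, every gained region with a gene named by the study, and the 3 autosomes with the largest gain and the 3 with the largest loss. Outside this rule, 2 gained regions far from Input were named after their values were seen, as were the dense loci. The members and lists were chosen with earlier results of these data known. Gene names were taken from the study's annotation of its peaks, of which 76 of 76 matched a MAT2A-ChIP 1 peak by number and position. Of 25 names beside gained regions, 22 were in a RefSeq table of another assembly (ARS-UCD2.0), 19 of them on the same chromosome as here, and that table was used for names only. The X chromosome was left out of the comparisons, and no bosTau8 sequence or annotation was examined. Python 3.11.15, numpy 2.4.6, scipy 1.17.1 and matplotlib 3.10.9 were used, overlaps were checked with bedtools 2.31.1, and the scripts were tested on simulated data. Alternatives are given in the closing section.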

Additional observations from a re-analysis of the deposited data

Results flagged for a closer look

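On the X chromosome, which lies outside the autosomal comparison, 16 of 178 replicated MAT2A-ChIP peaks (8.99%) were gained over Input in both replicates, against 5 of 175 (2.86%) for IgG control with the same Input lists. The difference between these counts was not tested, and the sex of the embryos in the pools is not given in the sources used here.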

How the results depend on the processing

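With 2 replicates a side no setting could bring a p under 0.05, and depth behind a peak is unknown. The differences in width and spacing and the width ratio kept their direction in both replicates under every alternative run. The difference in number (105.5) fell to 2.5 peaks with all chromosomes, with opposite signs in the replicates (71 and -66), and was 229.5 with peaks within 1 kb joined and 235 without the 12 densest loci. The difference in spacing (401 kb) was 158 kb, 668 kb and 728 kb in the same order, and 2.59 kb with the better-scoring 50% of each list, where the difference in neighbours was -0.799 points with opposite signs in the replicates (-1.78 and 0.18). With no replicate block the exact permutation p was 0.667 for number and 0.333 for width, spacing and neighbours, the 4 pairings gave 49.8% of MAT2A-ChIP and 51.0% of Input peaks shared, with 23 gained and 172 lost peaks, and it changed no call. The better-scoring 50% of each list gave 71.4% of MAT2A-ChIP and 73.0% of Input peaks shared, 43 gained and 47 lost peaks, and median percentiles of 23.6 for gained and 25.1 for lost peaks. Lists of equal length gave 54.7% of MAT2A-ChIP peaks shared and a gained percentile of 25.0. All chromosomes gave 52.9% of MAT2A-ChIP peaks shared, 39 gained peaks and a lost percentile of 29.2. Joining peaks within 1 kb gave 45.4% of MAT2A-ChIP peaks shared, 115 lost peaks and a lost percentile of 25.8. Counting peaks within 500 bp as overlapping gave 56.7% of Input peaks shared and a lost percentile of 26.1. Leaving out the 12 densest loci, chosen after seeing the data, gave 38.5% of MAT2A-ChIP and 45.8% of Input peaks shared and percentiles of 32.6 and 29.3. In a single replicate, the gained peaks numbered 726 to 914 and the lost peaks 692 to 802. The causes of these shifts were not tested. Between 19 and 23 autosomes kept 1 sign in both replicates under the alternatives, all added after seeing the data for this count, against 22.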
